A study of Rattus norvegicus with 8 samples.

Results

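Sensory neurons of the dorsal root ganglia (DRG) owe their identity to a small set of transcription factors, and 10 of these were examined in injured ganglia: Isl1, Pou4f1, Pou4f2, Pou4f3, Runx1, Runx3, Prdm12, Drgx, Tlx3 and Etv1. They were chosen by name, and each gene was read from the probe set whose only gene symbol was its own. Of the 10, 7 had such a probe set, 1 each, out of 14497 genes with at least 1 on the array. Pou4f2, Prdm12 and Tlx3 were not analysed here. All 7 probe sets passed a filter at the 30th percentile of mean signal over all 28826 probe sets. Pou4f3 was the dimmest, at percentile 40.6, followed by Drgx at 53.1. Passing this filter does not show that a transcript was present, and detection above background was not tested.

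The tissue was ipsilateral L5 DRG from adult male Wistar rats, collected 14 days after ligation and transection of the L5 spinal nerve. In 4 samples the rats had received MS-275, which inhibits class I histone deacetylases (a HDACI), intrathecally from an osmotic pump at a rate of 30 nmol per day, and in 4 they had received vehicle, dimethyl sulfoxide in saline. In the study's main behavioural tests infusion began days before the injury and continued through it. The start of infusion is not restated for the array samples. Whether an array held 1 animal's ganglion or a pool is not stated in the sources used here. Both groups carried the nerve injury, and uninjured ganglia were not analysed here, so the values compare drug with vehicle after injury and do not show what injury itself did. Each sample was measured on its own Affymetrix whole-transcript array, and values are log2 signals after RMA normalization, in which 1 unit is a doubling. The question was whether the drug altered the transcripts of these factors in the ganglion that holds the cut axons.

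Isl1 is a LIM-homeodomain protein and Pou4f1 (Brn3a) a POU-homeodomain protein, and in mouse almost all sensory neurons make both as they leave the cell cycle and begin to differentiate. Pou4f3 is a close relative of Pou4f1, best known for its role in inner ear hair cells, and Drgx (Drg11) is a paired-type homeodomain protein of nociceptive neurons and of the dorsal horn. In mouse, Runx1 directs nociceptors towards the non-peptidergic, Ret-expressing fate and Runx3 supports proprioceptors, whereas the ETS factor Etv1 (Er81) is needed for proprioceptors to connect with motor neurons. Runx1 and Runx3 are also made by blood-derived cells, so that whole-ganglion values need not come from neurons alone. In bulk tissue, fewer cells of a type and less RNA per cell cannot be told apart.

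The promoters of the pan-sensory pair are shown because HDAC inhibitors act on histones at such regions, although no value here measures acetylation. The study itself found no clear drug effect on histone acetylation in L5 DRG, globally or at the promoters it tested. Isl1 and Pou4f1 were not among those promoters. It proposes that the drugs did not reach these ganglia in detectable amounts. The windows shown are the 250 bases before the annotated start in RefSeq (build GRCr8), read 5′ to 3′ on the gene's strand. Isl1 lies on the minus strand, with this window at chr2:49823443-49823692, and Pou4f1 also on the minus strand, at chr15:87674644-87674893. Capitals mark the homeodomain core TAAT and the E-box CANNTG, searched on both strands with overlapping matches each counted. The GC box GGGCGG was searched too, and neither window held it.
Isl1: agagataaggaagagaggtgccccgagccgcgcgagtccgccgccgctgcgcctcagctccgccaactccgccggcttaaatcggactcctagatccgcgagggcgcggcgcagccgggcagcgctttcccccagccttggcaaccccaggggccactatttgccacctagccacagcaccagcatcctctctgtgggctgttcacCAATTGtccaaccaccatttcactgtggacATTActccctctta
Pou4f1: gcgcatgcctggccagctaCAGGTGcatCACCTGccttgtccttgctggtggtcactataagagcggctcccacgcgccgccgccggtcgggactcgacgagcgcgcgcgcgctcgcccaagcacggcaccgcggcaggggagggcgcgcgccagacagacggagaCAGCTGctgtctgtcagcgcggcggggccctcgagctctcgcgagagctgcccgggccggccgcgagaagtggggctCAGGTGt

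The Isl1 window held 1 E-box and 1 TAAT core, and the Pou4f1 window held 4 E-boxes and no TAAT core. E-boxes are the letters bound by the neurogenin and NeuroD proteins that act before these factors in development. Over the 12 windows listed for the 10 genes, 6 held a TAAT core, 8 an E-box and 8 a GC box. Of all 33469 windows of the same length, 57.0% held a TAAT core, 65.5% an E-box and 30.5% a GC box. Such short matches occur in many promoters and describe the letters only.

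No difference between MS-275 and vehicle passed the test for any of the 7 measured factors. By limma, 0 of the 7 had an adjusted p under 0.05 (adjusted p = 1.0 for each), as had 0% of all probe sets. At an unadjusted p under 0.05 there were 0 higher, against 1.61% of all probe sets, and 0 lower, against 1.93%, which makes 3.55% in either direction. No factor passed an unadjusted p of 0.01 either, against 0.555% of all probe sets, and the HDACI and vehicle arrays overlapped for each of the 7, whereas they did not overlap for 2.1% of all probe sets. The means of 4 factors were higher in HDACI and those of 3 were lower, where 53.3% of all probe sets were higher. The median difference was 0.013 on the log2 scale, against 0.0055 over all probe sets. These shares lie near the background, and the size of each difference is given by its confidence interval. Leaving out vehicle replicate 1 left 1 of the 7 higher and 6 lower, with a median of -0.035, and leaving out vehicle replicates 1 and 2 left 4 higher and 3 lower.

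**Figure D1:**
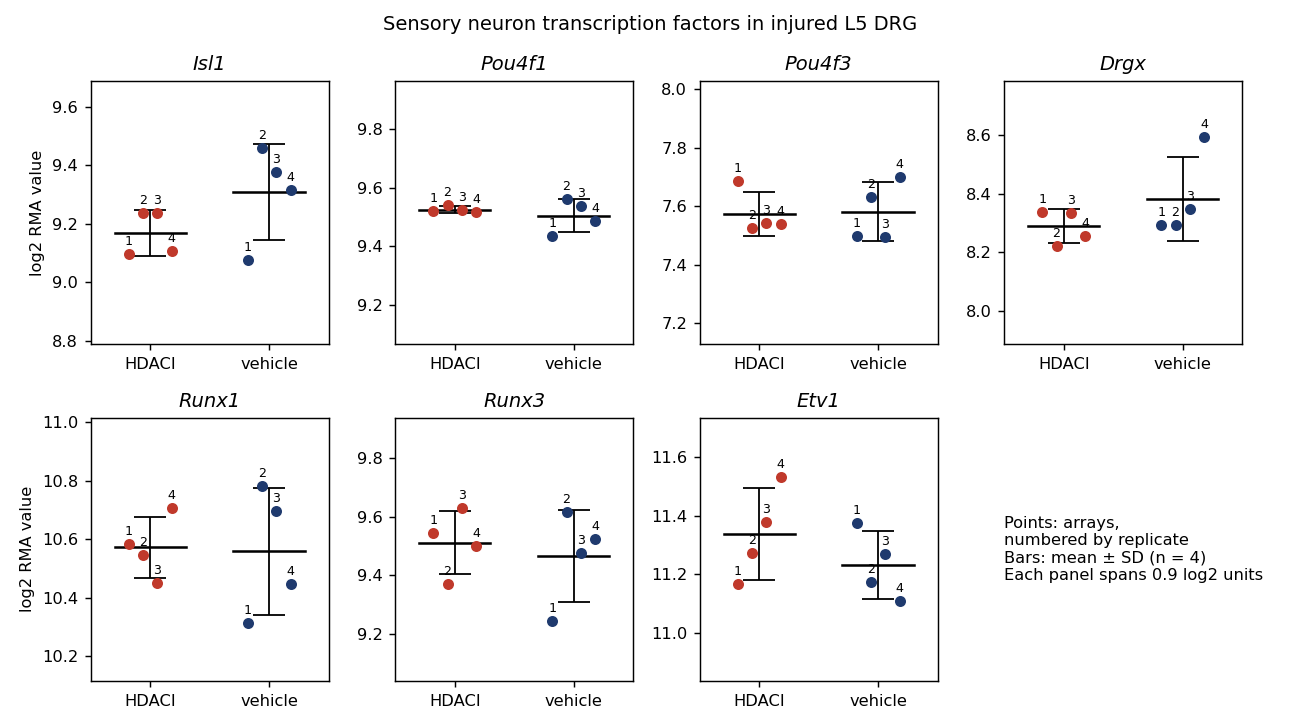
Log2 RMA values (y axis) of the 7 measured transcription factors on each array, HDACI in red and vehicle in blue, with replicate numbers; bars give the mean and SD of n = 4. Every panel spans the same height, and the 2 groups overlap in each, with vehicle replicate 1 lowest for Isl1, Pou4f1, Runx1 and Runx3.

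Isl1 showed the smallest p of the set. It measured 9.09, 9.24, 9.24 and 9.11 in HDACI replicates 1 to 4 and 9.08, 9.46, 9.38 and 9.32 in vehicle replicates 1 to 4. The HDACI values lay below 3 of the 4 vehicle arrays and above the remaining one, vehicle replicate 1. The difference was -0.14 ± 0.08 (log2, SE), with a 95% confidence interval of -0.33 to 0.051, and the exact permutation p was 0.200 (two-sided). The size of this difference moved with single arrays, but its sign did not. The difference was -0.21 without vehicle replicate 1, where the unadjusted limma p was 0.00810 but the adjusted p was 0.809. It was -0.088 without vehicle replicate 2. Without both, which were the arrays highest in skeletal muscle genes, it was -0.18, with an unadjusted limma p of 0.0362 and an adjusted p of 0.917.

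Pou4f1 was the steadiest of the 7 genes. It measured 9.52, 9.54, 9.52 and 9.52 in the HDACI arrays and 9.44, 9.56, 9.54 and 9.49 in the vehicle arrays. The HDACI arrays nearly coincided and fell inside the range of the vehicle arrays. The difference was 0.020 ± 0.044 (log2, SE), with a 95% confidence interval of -0.079 to 0.12, which is 0.947-fold to 1.09-fold. Its pooled SD within groups, 0.041, stood at percentile 5.09 of all probe sets.

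Pou4f3 measured 7.69, 7.53, 7.54 and 7.54 in HDACI and 7.50, 7.63, 7.50 and 7.70 in vehicle. HDACI replicate 1 and vehicle replicates 2 and 4 stood above the remaining arrays, so that high values occurred in both groups. The difference was -0.0077 ± 0.064 (log2, SE; 95% confidence interval -0.15 to 0.14).

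Drgx measured 8.34, 8.22, 8.34 and 8.26 in HDACI and 8.29, 8.29, 8.35 and 8.59 in vehicle. A single array, vehicle replicate 4, stood above all others. The difference was -0.094 ± 0.074 (log2, SE; 95% confidence interval -0.26 to 0.073), and without vehicle replicate 4 it was -0.023. As Drgx is also a gene of the dorsal horn, 13 of 14 listed spinal cord genes were read beside it. Their mean, relative to all arrays, lay between -0.13 and 0.081 in HDACI and between -0.048 and 0.076 in vehicle. Of these genes 5 were higher and 8 lower in HDACI, with a median difference of -0.0080 (log2). An unadjusted p under 0.05 was reached by 2 of them, against 3.55% of all probe sets. They were the water channel Aqp4 (-0.27 ± 0.11) and the glutamate transporter Slc1a2 (-0.29 ± 0.11), both astrocyte genes. By their means these lay at percentiles 37.7 and 34.0 of all probe sets. Both were highest in vehicle replicate 3, and their groups did not overlap (2.1% of all probe sets did not). Without HDACI replicate 4 neither passed, and Aqp4 did not without HDACI replicate 1 or vehicle replicate 3. Their part in the Drgx values was not tested.

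Of the Runx factors, Runx1 measured 10.58, 10.55, 10.45 and 10.70 in HDACI and 10.31, 10.78, 10.69 and 10.45 in vehicle. The vehicle arrays spanned the whole range of the HDACI arrays and went beyond it at both ends. The difference was 0.013 ± 0.11 (log2, SE; 95% confidence interval -0.23 to 0.25), the widest interval of the 7. Its pooled SD of 0.17 stood at percentile 82.8 of all probe sets.

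Runx3 measured 9.55, 9.37, 9.63 and 9.50 in HDACI and 9.25, 9.62, 9.48 and 9.52 in vehicle. Apart from vehicle replicate 1, which was lowest, the arrays of the 2 groups were interleaved. The difference was 0.046 ± 0.087 (log2, SE; 95% confidence interval -0.15 to 0.24). Markers of the blood-derived cells that make these factors were read too. By limma 0 of 12 macrophage genes and 0 of 12 T and NK cell genes had an unadjusted p under 0.05. Over all probe sets the share was 3.55%. The means of 11 macrophage genes were higher in HDACI, where 53.3% of all probe sets were higher. The median difference over the 12 was 0.10, and it was 0.015 without HDACI replicate 4. The lowest p belonged to the lipopolysaccharide co-receptor Cd14 (0.31 ± 0.21) and the myeloid factor Spi1 (0.15 ± 0.13) in the first list, and to the cytotoxic protease Gzmb (-0.17 ± 0.11) and the NK receptor Klrb1 (0.095 ± 0.061) in the other. Gzmb passed an unadjusted p of 0.05 without HDACI replicate 3, and Klrb1 was dim, at percentile 19.5 of all probe sets by its mean. The macrophage mean ranged from -0.16 to 0.45 in HDACI, with HDACI replicate 4 highest, and from -0.12 to 0.067 in vehicle (log2, relative to all arrays). The T and NK cell mean ranged from -0.12 to 0.17 in HDACI and from -0.084 to 0.10 in vehicle, and the part of these cells in the Runx1 and Runx3 values was not tested.

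Etv1 measured 11.17, 11.27, 11.38 and 11.53 in HDACI and 11.38, 11.17, 11.27 and 11.11 in vehicle. HDACI replicate 4 was highest and vehicle replicate 4 lowest, and the other 6 arrays were interleaved. The difference was 0.11 ± 0.09 (log2, SE; 95% confidence interval -0.094 to 0.31). Without HDACI replicate 4, the array highest in macrophage genes, it was 0.041, and without HDACI replicate 1 it was 0.16. The part of macrophages in this value was not tested, and no list of fibroblast genes was read.

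Across the 7 factors the confidence intervals ran from 0.797-fold, the lower end for Isl1, to 1.24-fold, the upper end for Etv1. RMA can compress differences of dim probe sets, so these bounds hold for the array signal. The median pooled SD of the 7 was 0.13, against 0.10 over all probe sets.

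**Figure D2:**
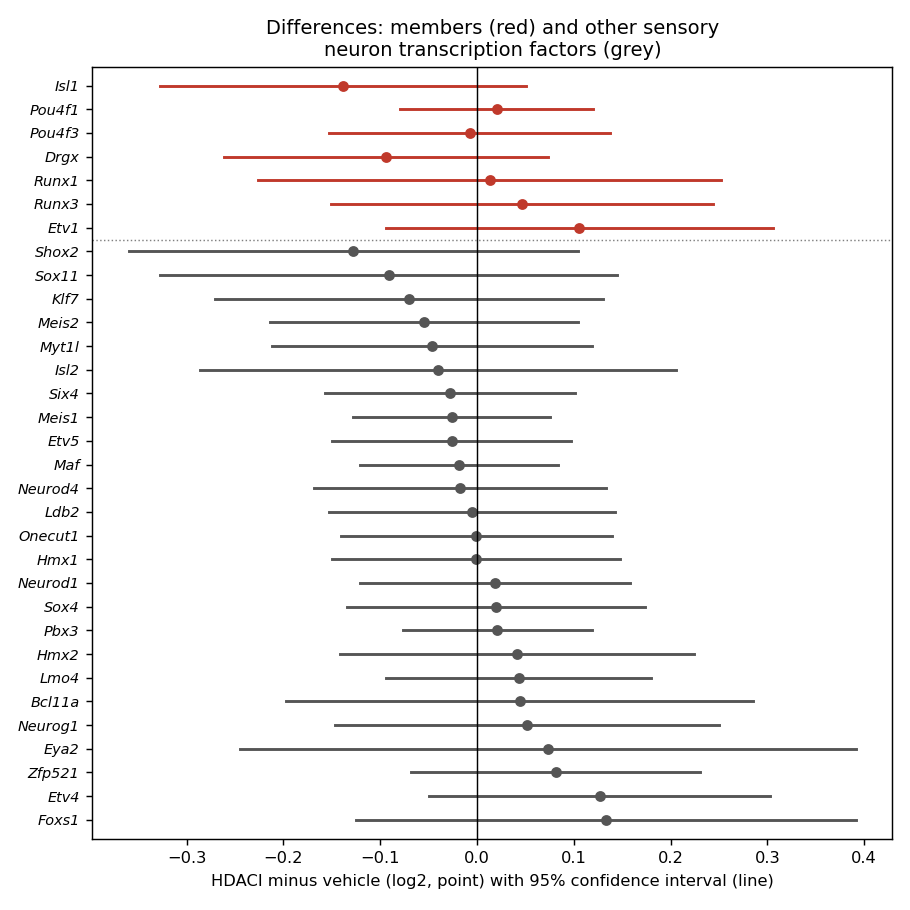
Difference between HDACI and vehicle (x axis, log2; points) with its 95% confidence interval (lines) for the 7 measured factors in red and 25 other transcription factors of sensory neurons in grey. Every interval crosses 0.

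Other transcription factors of sensory neurons were read in the same way. Of 34 listed genes 25 were measured, 11 higher and 14 lower in HDACI, and 0 had an unadjusted p under 0.05 (3.55% of all probe sets). The median difference was -0.00099 and the differences lay between -0.13 and 0.13 (log2). The 4 with the smallest p were the ETS factor Etv4 (0.13 ± 0.08), the homeobox gene Shox2 (-0.13 ± 0.10), the zinc finger gene Zfp521 (0.081 ± 0.066) and the forkhead gene Foxs1 (0.13 ± 0.11, SE). Without vehicle replicate 1, 8 were higher and 17 lower, and 2 had an unadjusted p under 0.05, the zinc finger gene Klf7 and the HMG-box gene Sox11. Both also passed without vehicle replicates 1 and 2, and none of the 25 did when any other single array was left out. Among all 28826 probe sets, 1758 passed without vehicle replicate 1 and 1383 without vehicle replicates 1 and 2. Isl2, the closest relative of Isl1, differed by -0.040 ± 0.11. Over the 25 genes the median range from the lowest to the highest array was 0.30, against 0.38 for the 7 factors.

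The factors were then set beside 26 of 30 listed genes that work in mouse places downstream of them. The list was not split by whether a factor raises or lowers a gene, so its counts do not measure the activity of the factors. In HDACI 6 of the 26 were higher, against 53.3% of all probe sets, and 20 lower, with a median difference of -0.085 (log2). An unadjusted p under 0.05 was reached by 1 of them, against 3.55% of all probe sets. These counts moved with single arrays. Without vehicle replicate 4, 14 were higher and 12 lower, with a median of 0.011 and 4 genes past that p (Avil, Pvalb, Nppb and Sst). Without vehicle replicate 1, 4 were higher and 22 lower, with a median of -0.14 and 4 past it (Ret, Gfra3, P2rx3 and Prph). Without vehicle replicates 1 and 2, 21 were lower, with a median of -0.17 and 8 past it. Among all 28826 probe sets, 1337 passed it without vehicle replicate 4 and 1758 without vehicle replicate 1. Without vehicle replicates 1 and 2, 1383 did. Over the 8 refits without a single array the number of downstream genes past that p ran from 0 to 4, and 0 had an adjusted p under 0.05. The gene past that p with all arrays was Pvalb, a marker of proprioceptors, which need Runx3. It measured 8.48, 8.50, 8.50 and 7.97 in HDACI and 11.31, 10.38, 8.18 and 9.32 in vehicle, a difference of -1.43 ± 0.57. With a single array left out, it still passed only without vehicle replicate 3 or 4. The vehicle arrays with much Pvalb were those with much skeletal muscle signal, a tissue that also makes it, and the part of muscle in the Pvalb values was not tested. Of 14 measured muscle genes 13 were lower at an unadjusted p under 0.05, against 1.93% of all probe sets. At an adjusted p under 0.05 there were 0. The list was led by the myosin Myh4 (-2.70 ± 0.90) and myoglobin, Mb (-2.68 ± 0.89). Without vehicle replicates 1 and 2 the count at the unadjusted p was 1. These arrays were left out for being highest in these same genes, so a fall was fixed in advance. All 14 were still lower, with a median difference of -0.66 (log2). The mean of the 14 genes stood at 2.55, 1.58, -1.07 and 0.63 in vehicle replicates 1 to 4 and between -1.19 and -0.80 in HDACI (log2, relative to all arrays). The neurotrophin-3 receptor Ntrk3, which also depends on Runx3, differed by -0.047 ± 0.063.

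The other downstream genes named here did not pass an unadjusted p of 0.05 with all arrays. Ret, the GDNF receptor kinase kept by the Runx1 lineage, measured 11.49, 11.34, 11.43 and 11.26 in HDACI and 11.33, 11.64, 11.59 and 11.60 in vehicle, with vehicle replicate 1 low as it was for Isl1. Its difference was -0.16 ± 0.08 (log2, SE), and without vehicle replicate 1 it had an unadjusted p under 0.05. Mrgprd, an itch and pain receptor of the same lineage, differed by -0.11 ± 0.12, and the cold channel Trpm8 by -0.18 ± 0.11. Avil (advillin), an actin-binding protein of sensory neurons, differed by 0.096 ± 0.15, and the peptide gene Sst by 0.41 ± 0.26, and both passed without vehicle replicate 4.

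Some arrays stood apart in the downstream genes without standing apart in most of the factors. Vehicle replicate 4 was the highest of the 8 arrays for 16 of the 26 downstream genes, but for 2 of the 7 factors (Pou4f3 and Drgx). Calca, the precursor of calcitonin gene-related peptide, chosen after its values were seen, measured 11.92 there and between 9.91 and 10.35 on the other 7 arrays. On that array Isl1 (9.32), Pou4f1 (9.49) and Runx1 (10.45) lay inside the range of the others. The median range from the lowest to the highest array was 0.55 for the downstream genes and 0.38 for the factors, and the largest ranges were 3.34 (Pvalb) and 0.47 (Runx1).

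**Figure D3:**
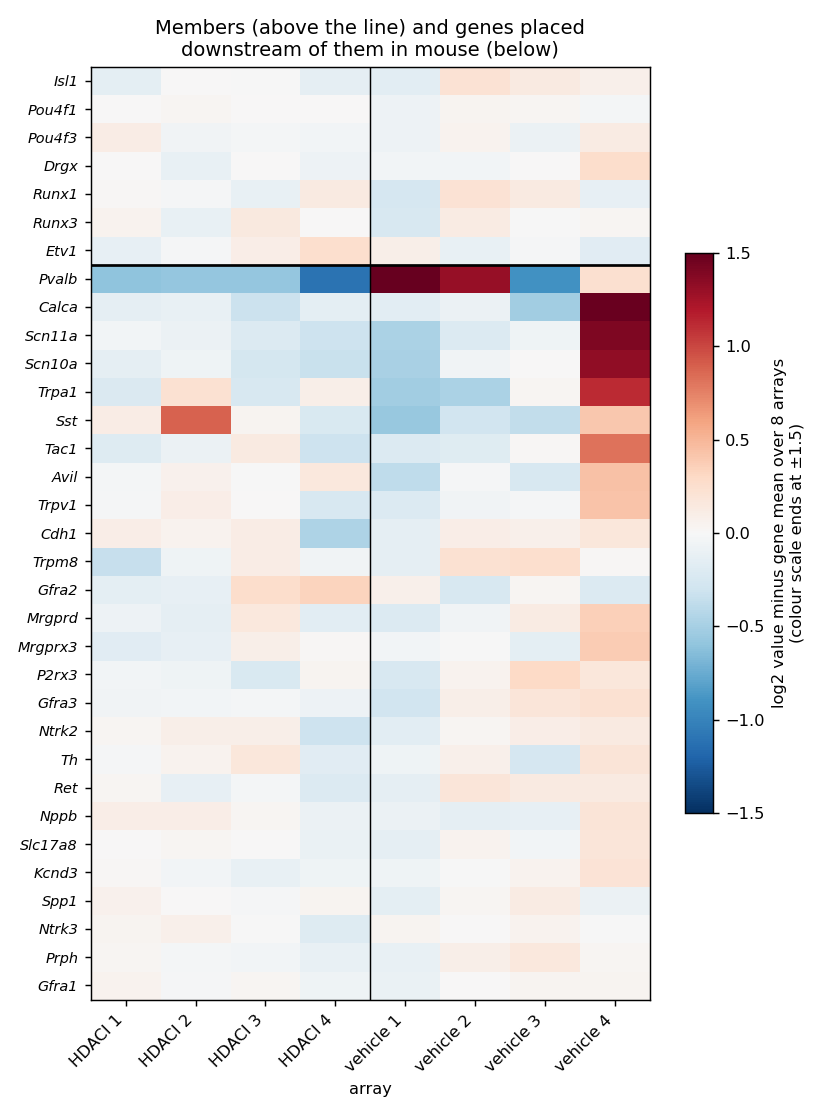
Colour gives the log2 value of each gene (rows) on each array (columns) minus the gene's mean over the 8 arrays, with the 7 factors above the line and 26 downstream genes below it, sorted by range. Vehicle replicate 4 is red for many downstream genes, such as Calca, while the range of the factors is at most 0.47 (Runx1).

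Vehicle replicate 1 stood apart in the other direction. It was the lowest array for 4 of the 7 factors (Isl1, Pou4f1, Runx1 and Runx3), for 12 of the 26 downstream genes and for 9 of the 25 other transcription factors. The same array was highest in muscle genes. The mean of 14 neuronal genes, which covers cytoskeletal, synaptic and RNA-binding proteins of neurons in general, was -0.11 there and -0.13 in HDACI replicate 4, against values from -0.038 to 0.14 on the other 6 arrays. All 14 neuronal genes had lower means in HDACI, with a median difference of -0.063 (log2). Over all probe sets 53.3% had higher means, with a median of 0.0055. Genes of a list are not independent counts, since 1 array can move many of them. Of the neuronal genes 1, the synaptic vesicle protein Syt1 (-0.26 ± 0.10), had an unadjusted p under 0.05, against 3.55% of all probe sets. Without HDACI replicate 4, 10 of the 14 were lower and 0 passed, and without vehicle replicate 1, 14 were lower and 5 passed. Among all 28826 probe sets, 899 passed without HDACI replicate 4 and 1758 without vehicle replicate 1. With a single array left out, Syt1 still passed only without HDACI replicate 1 or vehicle replicate 1. With the neuronal mean as a covariate some differences came closer to 0: Isl1 differed by -0.029 ± 0.073, Drgx by -0.025 ± 0.078 and Etv1 by -0.016 ± 0.073. The others became larger in size: Runx3 differed by 0.16 ± 0.08, Runx1 by 0.072 ± 0.13, Pou4f3, with its sign turned, by 0.058 ± 0.064 and Pou4f1 by 0.049 ± 0.047. The smallest unadjusted limma p under that covariate was 0.0730, for Runx3. With the muscle mean as a covariate Isl1 differed by -0.24 ± 0.11 and Drgx by -0.14 ± 0.11, and the unadjusted limma p of Isl1 was 0.0676. Among glial markers 0 of 6 satellite glia genes (Fabp7 -0.14 ± 0.11 and Apoe 0.071 ± 0.093) and 0 of 6 Schwann cell genes (Drp2 -0.14 ± 0.15 and Egr2 -0.10 ± 0.11) had an unadjusted p under 0.05. Over all probe sets 3.55% did. Fabp7 passed without vehicle replicate 2, and the myelin gene Mag without HDACI replicate 4.

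**Figure D4:**
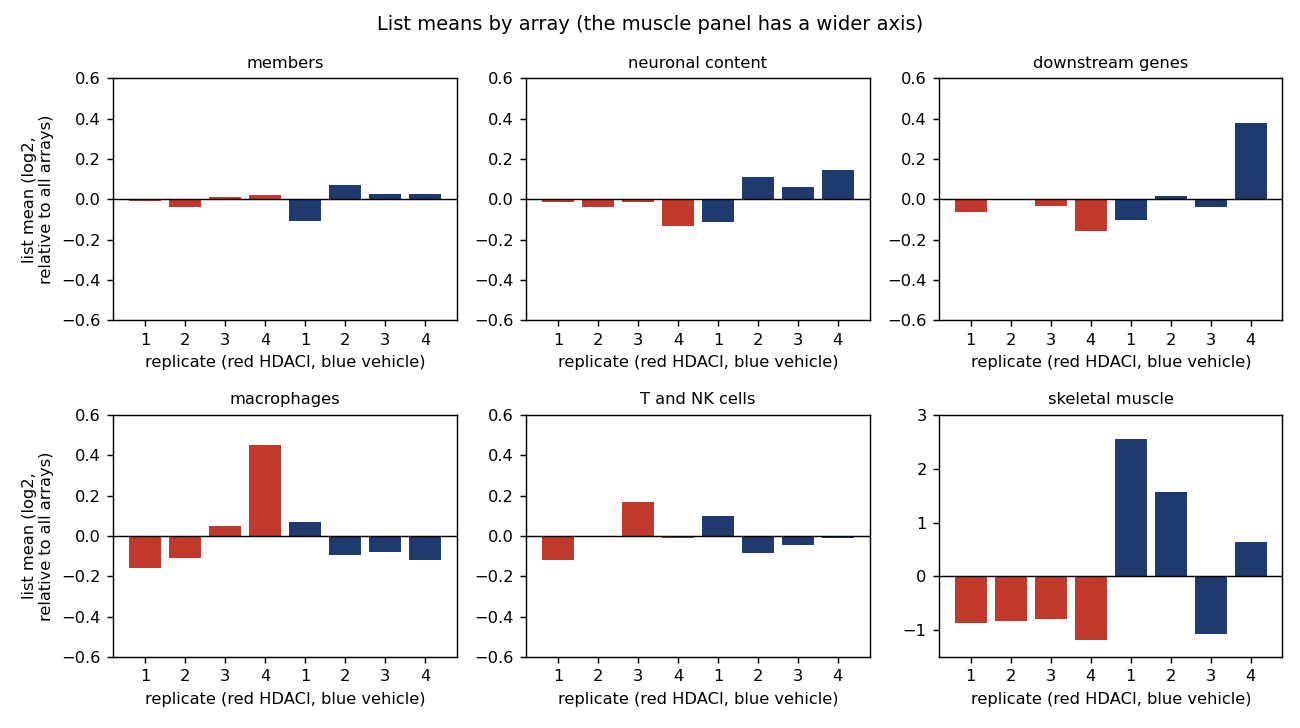
Mean of each gene list (y axis, log2 relative to all arrays) by array, with HDACI in red and vehicle in blue; the muscle panel has a wider axis. The means of the 7 factors stay between -0.11 and 0.073, whereas vehicle replicate 4 reaches 0.38 for the downstream genes, HDACI replicate 4 reaches 0.45 for macrophages and vehicle replicate 1 reaches 2.55 for muscle.

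No pair of factors had a correlation that held after adjustment. Of the 21 pairs among the 7, 13 had a positive and 8 a negative Pearson correlation over the 8 arrays, and 0 passed adjustment over the 21 pairs. The strongest positive pair was Pou4f1 with Runx1 (r = 0.82, exact permutation p = 0.00851, adjusted p = 0.179, and Spearman's rho = 0.64, exact permutation p = 0.0962, adjusted p = 0.635). Without the 2 arrays farthest from the Pou4f1 median, r fell to 0.45. The strongest negative pair was Pou4f3 with Etv1 (r = -0.72, exact permutation p = 0.0442, adjusted p = 0.454, and rho = -0.57, exact permutation p = 0.151, adjusted p = 0.635), and without the 2 arrays farthest from the Pou4f3 median r was -0.42. With each group's mean taken off, r over the 8 arrays was 0.84 for Pou4f1 with Runx1 and -0.77 for Pou4f3 with Etv1. Groups of 4 are too small for a correlation within each.

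The genes most alike to each factor over the 8 arrays are given as a description, since each is the best of 14496 genes and needs no shared control to reach a high value. For Isl1 they were the non-coding RNA Meg3 (r = 0.98), Mpig6b (0.97) and the monoamine transporter Slc29a4 (0.97). For Etv1 they were the matrix metalloproteinase Mmp2 (r = 0.996), Srpx2 (0.988) and the semaphorin receptor Nrp1 (0.982). The best match of Pou4f1 was Mon1a (0.97), of Pou4f3 Taok3 (0.96), of Runx1 Steap1 (0.96), of Runx3 Htr6 (0.96) and of Drgx the olfactory receptor Or8s10 (0.97, with a rho of only 0.55). None of the best matches was another of the 7 factors.

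The peripheral intermediate filament Prph measured 12.71 to 12.98 and the axotomy-induced factor Atf3 12.41 to 12.72. Both were named after their values were seen, so they do not test the identity of the tissue or its injury. Not all injury genes read high, and Gpr151 (6.20 to 6.51) lay at percentile 20.8 of all probe sets by its mean. Low expression and a poor probe set cannot be told apart here. Of 13 measured injury genes 2 had higher means in HDACI, against 53.3% of all probe sets, and 11 lower. Their median difference was -0.081 (log2). An unadjusted p under 0.05 was reached by 1 of the 13, against 3.55% of all probe sets. It was the neuropeptide Npy (-0.13 ± 0.05), which no longer passed without HDACI replicate 2 or vehicle replicate 2, 3 or 4. The cholecystokinin receptor Cckbr differed by -0.28 ± 0.13. With a single array left out 0 to 3 passed, the 3 being Npy, Sox11 and Cckbr without vehicle replicate 1. The peptide Vip passed without HDACI replicate 3 or vehicle replicate 4. Over the same refits 708 to 1758 of all 28826 probe sets passed, the most without vehicle replicate 1. Array medians lay between 8.13 and 8.16, arrays correlated at 0.991 to 0.997, and no probe set of the 28826 passed an adjusted p of 0.05 by limma (1022 at an unadjusted p under 0.05). The study also reports that no gene in these ganglia passed correction for multiple testing.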

How the data were processed

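The authors read the 8 Affymetrix Rat Gene 1.0 ST arrays into oligo and applied RMA, and the deposited values are log2 signals per probe set. Versions of these tools are not given in the sources used here, the value table itself does not state its scale, and RMA hides any change shared by all transcripts. The array signal has no read depth, so precision is limited by the 4 arrays per group. The study's methods call these biological replicates. Of 28826 probe sets, 15209 had 1 gene symbol, 306 several and 13311 none in the platform annotation, and 15178 matched a current RefSeq gene (GRCr8).

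HDACI minus vehicle was tested on all probe sets by limma (version 3.58.1, under R 4.3.3; moderated two-sided tests from lmFit with eBayes), with Benjamini-Hochberg adjustment over all of them and no covariate. limma was first tested on simulated data. Single genes were also tested by exact permutation (70 relabellings, smallest p 0.0286). Genes were read from their brightest single-symbol probe set. A list mean is the mean over genes of the value minus that gene's mean over all arrays.

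The factors and gene lists were chosen with earlier results of these data known. Named were all factors, the 4 genes with the smallest p of the 2 longest lists, the 2 of each other list but the neuronal one, downstream genes taken whatever their p (Ntrk3, Ret, Mrgprd, Avil and Pvalb, with a further one not reported here), and the 3 genes most correlated with a factor. Alternatives were a replicate block, other normalizations, a dim filter, single-symbol probe sets, variance models, array weights, muscle and neuronal means as covariates, each array left out and, added after the data were seen, no vehicle replicates 1 and 2, with list counts repeated without arrays.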

Additional observations from a re-analysis of the deposited data

Results flagged for a closer look

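A sample was marked where its gap to the nearest array of its group of 4, divided by that group's range, exceeded Dixon's critical value at the 95% level. Among the 14 groups of 4 values of the 7 factors 1 was marked, and among 50 groups of other named genes 5 were, where chance marks about 1 in 20. For Pou4f3, HDACI replicate 1 measured 7.69, with the next HDACI array at 7.54, a gap of 0.895 of the range. Vehicle replicate 4 for Drgx, with a gap of 0.822 of the range, fell just short of the limit. For Ret, vehicle replicate 1 measured 11.33, with the next vehicle array at 11.59. For Pvalb, HDACI replicate 4 measured 7.97, with the next HDACI array at 8.48. Vehicle replicate 3 was high for Aqp4 (7.88, next 7.44) and for Slc1a2 (7.66, next 7.27), and HDACI replicate 4 was high for the macrophage gene Cd14 (9.72, next 8.81).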

How the results depend on the processing

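No alternative gave any of the 7 factors an adjusted p under 0.05 by limma. At an unadjusted p under 0.05 the count was 1 with array weights and 1 without vehicle replicates 1 and 2. It was 0 to 1 with each array left out, and the factor was Isl1 each time. Among all 28826 probe sets that p was passed by 1022 in the main fit and 2045 with array weights. It was passed by 1383 without vehicle replicates 1 and 2, and by 708 to 1758 with each array left out, the most without vehicle replicate 1. Isl1 and Drgx kept their direction in all 20 refits, with Isl1 at -0.24 and Drgx at -0.14 under the muscle covariate and at -0.029 and -0.025 under the neuronal one. With array weights Runx1 differed by -0.079 and Runx3 by -0.037. With the muscle mean as a covariate Pou4f1 differed by -0.014, Pou4f3 by 0.0035, Runx1 by -0.13 and Runx3 by -0.029. With the neuronal mean Pou4f3 differed by 0.058 and Etv1 by -0.016. With each array left out Pou4f1 ran from -0.0027 to 0.039, Pou4f3 from -0.045 to 0.032, Runx1 from -0.069 to 0.087 and Runx3 from -0.027 to 0.096. The cause of these turns was not tested. Probe sets at an unadjusted p under 0.01 numbered 160, but 372 with array weights, 435 with the neuronal mean, 102 to 287 with each array left out, and 106 and 78 with the dim filter and with single-symbol probe sets, which test fewer. Replicate numbers did not pair the arrays (correlations of deviations -0.28 to 0.014, none best with its own number). With them as a replicate block 120 probe sets and 0 factors were counted. Each factor had 1 probe set, so averaging probe sets was not run.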
